A study of Rattus norvegicus with 15 samples.

Results

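Col1a1, Col1a2, Col3a1 and Fn1 encode fibrillar collagens and fibronectin, the proteins that make up much of the matrix that fibroblasts deposit. These 4 genes, of 32545 in the count tables, were taken by their Ensembl identifiers: ENSRNOG00000003897 for Col1a1, ENSRNOG00000011292 for Col1a2, ENSRNOG00000003357 for Col3a1 and ENSRNOG00000014288 for Fn1. All 4 were found in every library and passed the filter on low counts. The pairing of these identifiers with gene names comes from the definition of the set, since neither the count tables nor the reference used here pairs them.

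Messenger RNA was sequenced from 15 libraries of Rat1a, an immortalized rat fibroblast line. Each line stably carried mouse MYC with 1 lysine replaced by arginine (K149R in the line called R149, K158R in R158 or K323R in R323), unsubstituted mouse MYC (WT), or an empty vector (EV), with 3 biological replicates per line. Arginine keeps the positive charge of lysine but cannot be acetylated, and the study asked what acetylated lysines of MYC do in gene regulation. Every construct was represented by 1 stable line, so an effect of a construct and a property of the line that carried it cannot be told apart.

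The libraries held between 13303631 and 108933235 counts in genes, and the 4 genes had between 425 and 387498 counts each in a library. R149 replicate 1 had the fewest genes with a count, 13955, against up to 17848 in the other libraries. The level of MYC itself and of markers of other cell types was not read here, because the identifiers are not paired with names, so neither the constructs nor the cell type was checked against them. In bulk RNA, fewer cells that make a matrix RNA and less of it per cell cannot be told apart.

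The fibrillar collagens are secreted as long precursor chains that wind into triple helices, are trimmed outside the cell and then assemble into fibrils. Type I collagen, the main fibrillar collagen of connective tissue, is built from the chains encoded by Col1a1 and Col1a2, and type III collagen from the chain encoded by Col3a1. Fibronectin binds integrins and collagen and forms a fibrillar network of its own on which collagen is laid down. MYC, paired with MAX, binds DNA and regulates transcription, and matrix genes are among those known to be lower in fibroblasts with high MYC.

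Of the 4 genes, 1 had an entry in the RefSeq promoter table, Col1a2. Its upstream sequence is shown because Col1a2 was called lower than EV in every MYC line, as Col1a1 and Fn1 were. It is the 250 bases before the start annotated in that table, at chr4:33518307-33518556 on the plus strand of the GRCr8 build. Whether transcription begins at that start was not checked, so the window may hold transcribed bases. Capitals mark the motifs found in it.
Col1a2: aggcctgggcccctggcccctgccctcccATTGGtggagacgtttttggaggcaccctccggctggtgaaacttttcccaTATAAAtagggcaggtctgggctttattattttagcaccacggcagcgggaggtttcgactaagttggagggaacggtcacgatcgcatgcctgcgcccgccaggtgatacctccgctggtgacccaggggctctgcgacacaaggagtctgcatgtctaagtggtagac
Both strands were searched for CACGTG, the E-box bound by MYC with MAX, CCAAT, the CCAAT box, TATAAA, the TATA sequence, and GGGCGG, the GC box. CCAAT was found once, on the opposite strand, 217 to 221 bases before the start, and TATAAA once on the gene's strand, 165 to 170 bases before it. The letters of CACGTG and GGGCGG were not in this window. Among 27457 rat promoter windows of the same length, CCAAT occurred in 34.3%, TATAAA in 13.1%, GGGCGG in 32.4% and CACGTG in 5.79%. The CCAAT and TATAAA matches in the Col1a2 window do not overlap.

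The first comparison asked whether each MYC line differed from EV. Col1a1, Col1a2 and Fn1 fell in all 4 MYC lines, and Col3a1 passed the test in none. The 4 genes together took 0.167 ± 0.0134% of all counts in R149, 0.306 ± 0.101% in R158, 0.252 ± 0.0135% in R323 and 0.226 ± 0.0432% in WT, against 1.28 ± 0.148% in EV (SD, n = 3 each). Levels are given in CPM, counts divided by the library total and brought to a common total with TMM factors (trimmed mean of M values), and are compared between lines, not between genes of different length. Fold changes come from edgeR's quasi-likelihood test over 13676 genes, with Benjamini-Hochberg adjustment and a call at an adjusted p below 0.05. Calls of a lower level covered 3 of the 4 genes in each line, while 20.2% of all tested genes were called lower in R149, 14.1% in R158, 15.7% in R323 and 14.1% in WT. In either direction, 28.5% of tested genes were called in R158 and 26.8% in WT. Without EV replicate 3 these shares were 15.1% and 17.2%, and without EV replicate 2 the share in R158 was 18.2%.

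Col1a1, which encodes the alpha-1 chain of type I collagen, showed the deepest fall of the 4 genes in every MYC line. Its levels were 511, 586 and 564 CPM in R149 replicates 1, 2 and 3, and 1609, 1017 and 1598 CPM in R158. They were 911, 895 and 871 CPM in R323 and 803, 706 and 973 CPM in WT. The EV libraries held 7150.4, 8461 and 10294 CPM. All 12 MYC libraries thus lay far below all 3 EV libraries, and the highest MYC value was that of R158 replicate 1.

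On the log2 scale Col1a1 differed from EV by -3.96 ± 0.19 in R149, -2.62 ± 0.18 in R158, -3.27 ± 0.19 in R323 and -3.38 ± 0.19 in WT (SE). These are levels 15.6-fold, 6.13-fold, 9.68-fold and 10.4-fold lower than in EV, in the same order of lines. The edgeR adjusted p was 7.7e-09 for R149, 4.5e-07 for R158, 5.5e-08 for R323 and 2.7e-08 for WT. Of all 13676 genes tested, 43 had a lower log2 fold change in R149, 86 in R158, 94 in R323 and 54 in WT.

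Col1a2, which encodes the alpha-2 chain of the same collagen, fell less than Col1a1. It stood at 166, 205 and 191 CPM in R149, and at 305, 261 and 373 CPM in R158. R323 libraries held 198, 235 and 246 CPM, WT libraries 198, 231 and 291 CPM, and EV libraries 637, 595 and 691 CPM. No MYC library reached the lowest EV library, and R158 came nearest. The fall was 3.42-fold in R149, 2.05-fold in R158, 2.83-fold in R323 and 2.67-fold in WT. As log2 differences from EV these were -1.77 ± 0.16, -1.04 ± 0.15, -1.5 ± 0.16 and -1.42 ± 0.16 (SE), in that order. The largest edgeR adjusted p of the 4 was 0.000332, for R158.

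Fn1, which encodes fibronectin, fell about as far as Col1a2 but with a wider spread between replicates. The counts are per gene, so the splice forms of fibronectin are summed. R149 libraries held 1163, 848 and 809 CPM, and R158 libraries 1957, 678 and 1416 CPM. R323 libraries held 1559.8, 1248 and 1175 CPM, WT libraries 1449, 745 and 1251 CPM, and EV libraries 3376, 2981 and 3344 CPM. Every MYC library was below every EV library. Differences from EV were -1.78 ± 0.30 in R149, -1.26 ± 0.30 in R158, -1.28 ± 0.30 in R323 and -1.49 ± 0.30 in WT on the log2 scale (SE). They correspond to 3.44-fold, 2.4-fold, 2.44-fold and 2.82-fold lower levels, with edgeR adjusted p of 0.000377, 0.00672, 0.00469 and 0.0022.

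Each of these 3 genes fell at least 2-fold in all 4 lines, a size and call reached by 9.12% of tested genes in R149, 4.66% in R158, 6.48% in R323 and 5.05% in WT. Their MYC and EV libraries did not overlap in any of the 4 comparisons. Libraries that did not overlap and lay lower than EV were found for 28% of tested genes in R149, 22.7% in R158, 25.6% in R323 and 23% in WT, so the lack of overlap by itself is common. The 4 comparisons share the EV libraries.

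**Figure D1:**
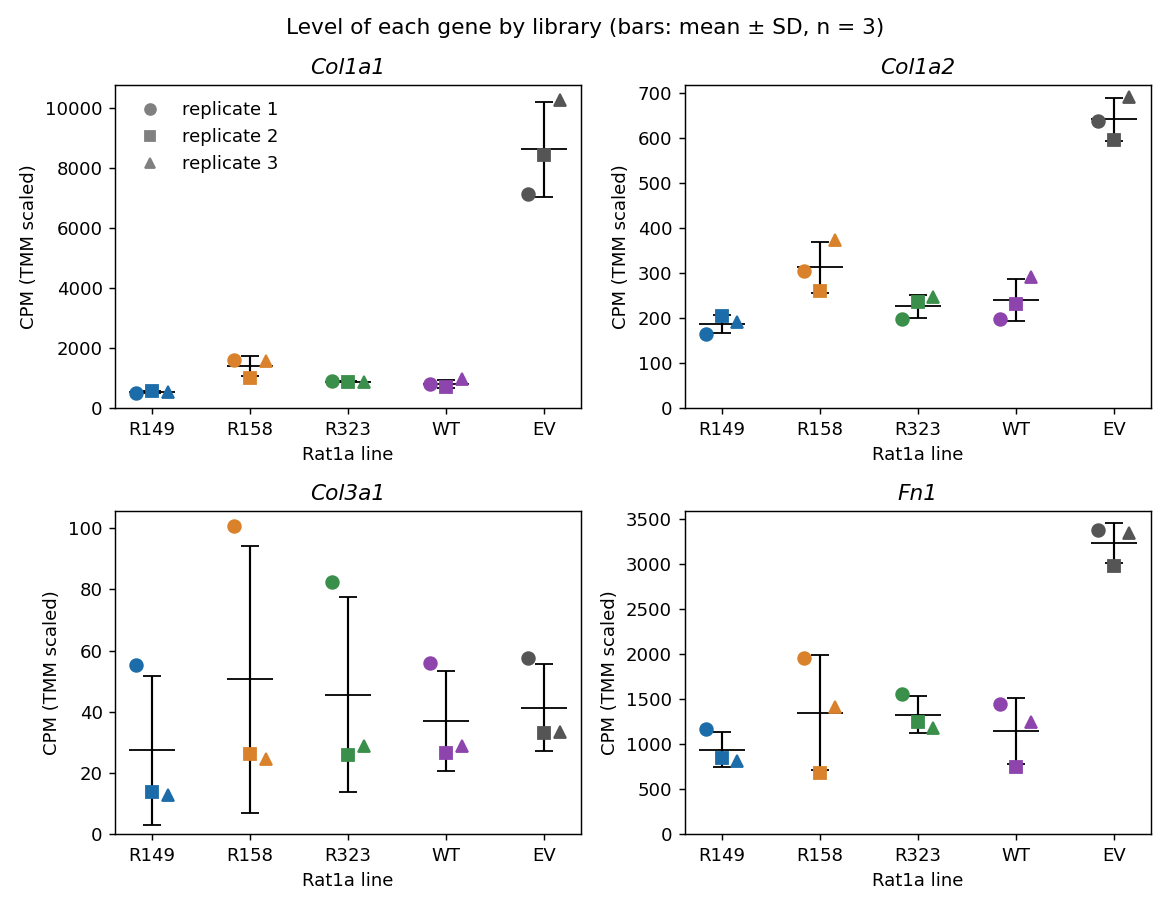
Level of each gene in each of the 15 libraries, in CPM with TMM scaling on axes that start at 0, by line. Points are libraries, with circles, squares and triangles for replicates 1, 2 and 3, and bars are the mean ± SD (n = 3). Col1a1, Col1a2 and Fn1 are lower in every MYC library than in every EV library, while the Col3a1 libraries of MYC lines and EV overlap and replicate 1 is the highest in each line.

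**Figure D2:**
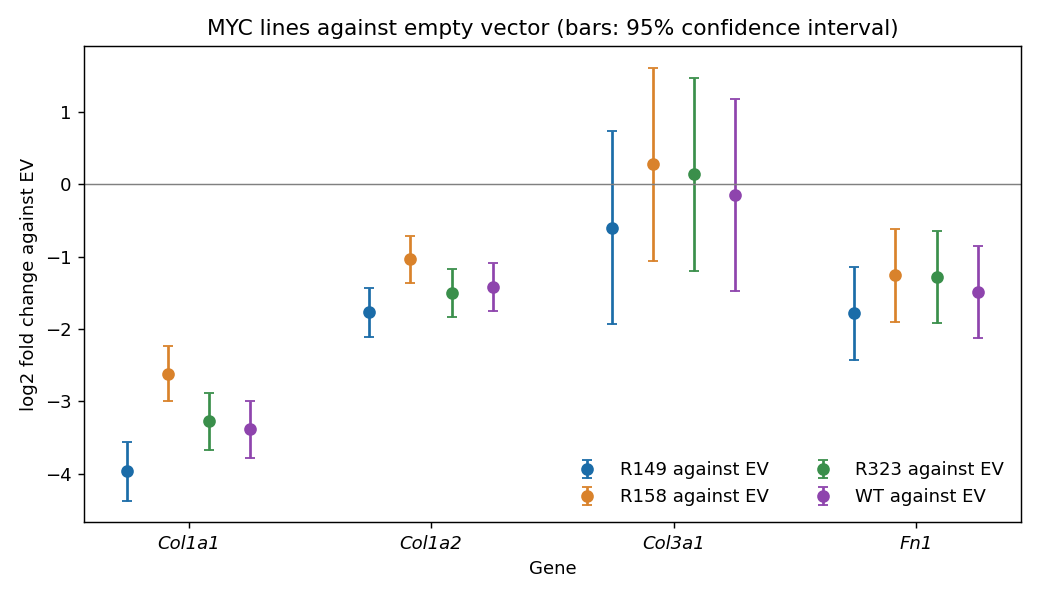
Log2 fold change of each gene in R149, R158, R323 and WT against EV from edgeR, with 95% confidence intervals. The intervals of Col1a1, Col1a2 and Fn1 lie below 0 in all 4 lines, with Col1a1 between -3.96 and -2.62, and the intervals of Col3a1 include 0.

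Col3a1, which encodes the chain of type III collagen, was the exception. Its libraries held 55.5, 13.9 and 12.9 CPM in R149, and 101 (replicate 1), 26.2 and 24.7 CPM in R158. R323 libraries held 82.4, 25.9 and 28.7 CPM, WT libraries 55.9, 26.6 and 28.7 CPM, and EV libraries 57.7, 33.1 and 33.4 CPM. The ranges of MYC and EV libraries overlapped in all 4 comparisons, and in all 5 lines replicate 1 was the highest. Replicate 1 stood above the mean of replicates 2 and 3 by a factor of 4.13 in R149, 3.96 in R158, 3.02 in R323, 2.03 in WT and 1.74 in EV.

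The log2 differences of Col3a1 from EV were -0.60 ± 0.63 in R149, 0.28 ± 0.63 in R158, 0.14 ± 0.63 in R323 and -0.15 ± 0.62 in WT (SE). The edgeR adjusted p was 0.475, 0.773, 0.895 and 0.881. Their 95% intervals ran from -1.93 to 0.73 in R149, -1.06 to 1.61 in R158, -1.20 to 1.47 in R323 and -1.48 to 1.17 in WT. In R149, R158 and WT these intervals include a fall as large as that of Col1a2 in the same line, and in all 4 lines they include 0, so a change of Col3a1 was not detectable with this spread rather than shown to be absent. Single libraries moved the R149 value most, from -1.63 without R149 replicate 1 (edgeR adjusted p 0.0544) to -0.26 without R149 replicate 3 (0.802).

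With replicates 2 and 3 alone, Col3a1 was called lower than EV in all 4 lines. The log2 differences from EV were then -1.32 in R149, -0.39 in R158, -0.30 in R323 and -0.27 in WT, with edgeR adjusted p of 2.5e-06, 0.00801, 0.0251 and 0.0401. By the same rule, 25.6% of all tested genes were called lower in R149, 21.7% in R158, 23.2% in R323 and 20.2% in WT, so calls of this kind were common among these libraries. In R158 and R323 this turned the sign of the difference. The R149 libraries of replicates 2 and 3, at 13.9 and 12.9 CPM, were below all other libraries. These values rest on 2 libraries per line, and what sets replicate 1 apart is not given by the labels. Replicate 1 held the highest Col3a1 level in every line, so this setting leaves out the highest library of this gene each time. Its p-values, here and in the comparisons between MYC lines below, are therefore a description and not a separate test of Col3a1.

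**Figure D3:**
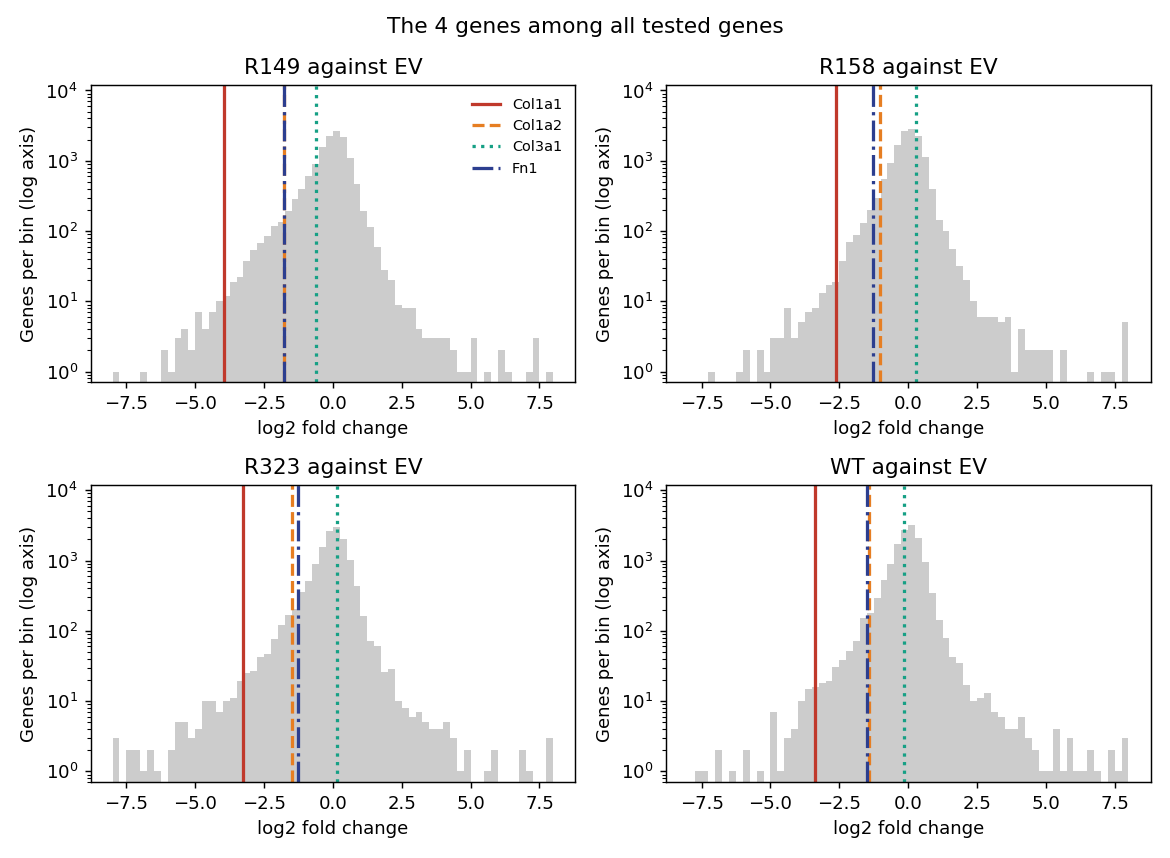
Number of genes (log axis) by log2 fold change against EV in bins for R149, R158, R323 and WT, with vertical lines for the 4 genes. Values beyond -8 or 8 are drawn in the outermost bins. Col1a1 lies in the far lower tail, where 43 to 94 of 13676 genes have a lower value, Col1a2 and Fn1 lie closer together at about -1 to -2, and Col3a1 lies near 0, most negative in R149 at -0.60.

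Because the chains encoded by Col1a1 and Col1a2 form the same collagen, the ratio of their counts was followed within each library, where depth and scaling cancel. The ratio also holds the lengths of the transcripts, so only its change between lines is read. It was 3.08, 2.86 and 2.94 in R149, 5.28, 3.9 and 4.29 in R158, 4.61, 3.81 and 3.54 in R323, and 4.05, 3.06 and 3.34 in WT. In EV it was 11.2, 14.2 and 14.9. No MYC library came near the EV range, so Col1a1 was more strongly reduced relative to Col1a2 in every MYC library. Line means were 2.96 ± 0.11 in R149, 4.49 ± 0.714 in R158, 3.99 ± 0.558 in R323 and 3.48 ± 0.509 in WT, against 13.5 ± 1.96 in EV (SD, n = 3 each).

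The ratio of Col1a2 to Fn1 counts showed no such shift. It averaged 0.207 ± 0.0558 in R149, 0.268 ± 0.114 in R158, 0.175 ± 0.043 in R323 and 0.226 ± 0.0866 in WT, against 0.198 ± 0.00892 in EV (SD, n = 3 each). In each MYC line the 3 libraries lay on both sides of the EV range, with replicate 1 below it. Fn1 shared with Col3a1 that replicate 1 was the highest library in 5 of 5 lines, while this held in 2 of 5 lines for Col1a1 and in 0 of 5 for Col1a2. For Fn1 replicate 1 stood above the mean of replicates 2 and 3 by a factor of only 1.07 in EV, and of 1.87 at most, in R158.

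**Figure D4:**
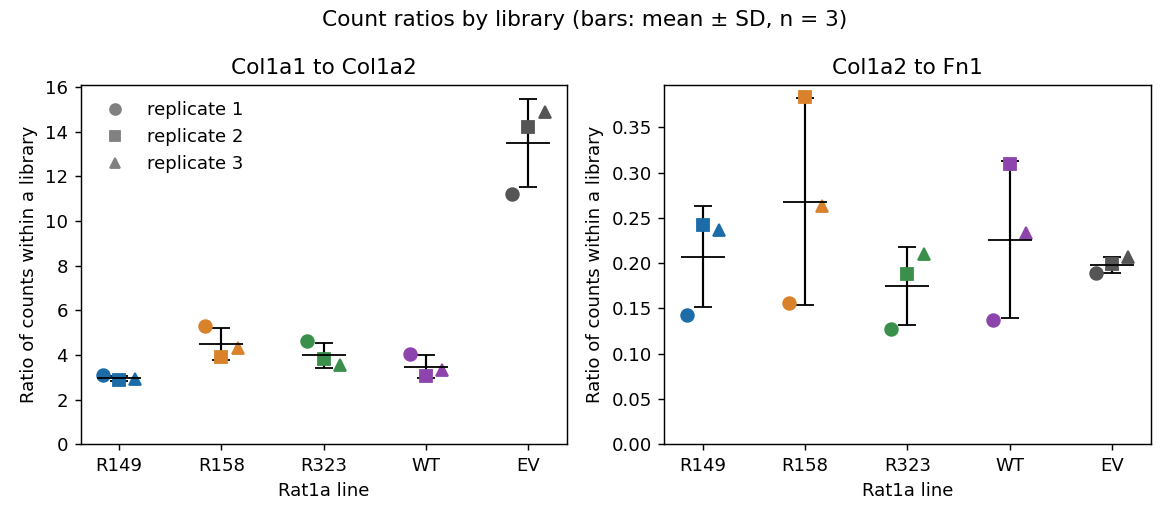
Ratio of Col1a1 to Col1a2 counts (left) and of Col1a2 to Fn1 counts (right) within each library, on axes that start at 0. Points are libraries by replicate number and bars are the mean ± SD (n = 3). The Col1a1 to Col1a2 ratio is at most 5.28 in the MYC libraries and at least 11.2 in the EV libraries, while the Col1a2 to Fn1 ratios of MYC and EV libraries overlap.

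The comparison of each mutant with WT asked whether the substituted lysines mattered for the matrix genes. None of the 4 genes was called different from WT in any mutant line, where 1.18% of all tested genes were called in R149, 0.6% in R158 and 0.892% in R323 in either direction. At an unadjusted p below 0.05, Col1a1 and Col1a2 were lower than WT in R149 and higher than WT in R158, as 6.87% of all tested genes were in R149 and 6.36% in R158 by the same rule and direction. The shares called at an adjusted p below 0.05 in either direction moved as single libraries were left out in turn. They ranged from 0.553 to 2.59% in R149, 0.136 to 1.5% in R158 and 0.444 to 1.76% in R323, each highest without WT replicate 1.

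For Col1a1 in R158, the mean was 1408 ± 339 CPM, against 827 ± 135 CPM in WT (SD, n = 3 each), with no overlap between the libraries, as seen in this direction for 7.14% of all tested genes. The log2 difference was 0.77 ± 0.17 (SE; 95% interval 0.40 to 1.13), with an edgeR adjusted p of 0.0586. Libraries of equal number, which deviated together among the MYC lines, differed by 1.00, 0.53 and 0.72 on the log2 scale, so R158 was higher in 3 of 3 pairs. With the replicate number as a block the adjusted p was 0.0166, and with DESeq2 it was 0.00348. Without R158 replicate 2 the edgeR adjusted p was 0.0108.

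In R149, Col1a1 averaged 553 ± 38.6 CPM, against 827 ± 135 CPM in WT (SD, n = 3 each), and the libraries did not overlap, as for 8.45% of all tested genes in this direction. The log2 difference was -0.58 ± 0.17 (SE; 95% interval -0.94 to -0.22), with an edgeR adjusted p of 0.139. R149 was lower in 3 of 3 pairs of equal number, by -0.65, -0.27 and -0.79. The adjusted p was 0.0511 with the replicate block, 0.0417 with DESeq2 and, with edgeR, 0.0484 without R158 replicate 2, whose spread enters the fit. In 23 of 25 alternatives, the block among them, Col1a1 was not called. Their edgeR adjusted p reached 0.53, without WT replicate 3.

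In R323, Col1a1 averaged 892 ± 20.3 CPM, against the 827 ± 135 CPM of WT (SD, n = 3 each). The difference from WT was 0.11 ± 0.17 for Col1a1, -0.08 ± 0.15 for Col1a2, 0.21 ± 0.29 for Fn1 and 0.29 ± 0.62 for Col3a1 (log2, SE), each with an edgeR adjusted p of 0.996. The 95% intervals ran from -0.25 to 0.47 for Col1a1 and from -0.41 to 0.24 for Col1a2, so the data allow at most modest differences of these chains between R323 and WT. The interval of Fn1, from -0.42 to 0.84, was wider.

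For Col1a2, the difference from WT was -0.36 ± 0.15 in R149 and 0.38 ± 0.15 in R158 (log2, SE), with edgeR adjusted p of 0.376 and 0.365. For Fn1 it was -0.29 ± 0.29 in R149 and 0.23 ± 0.29 in R158, with adjusted p of 0.789 and 0.82. For Col3a1 it was -0.45 ± 0.62 in R149 and 0.43 ± 0.63 in R158, with adjusted p of 0.859 and 0.844. With replicates 2 and 3 alone, Col3a1 was lower in R149 than in WT by -1.05 on the log2 scale (edgeR adjusted p 8.3e-05), where 6.57% of tested genes were called lower, and the adjusted p was 0.426 in R158 and 0.931 in R323.

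The mutant lines were also compared with each other. Both chains of type I collagen were lower in R149 than in R158, a comparison in which 1% of all tested genes were called lower. Col1a1 averaged 553 ± 38.6 CPM in R149, against 1408 ± 339 CPM in R158. The log2 difference was -1.35 ± 0.17 (SE; edgeR adjusted p 0.00123), and libraries did not overlap, as for 8.62% of all genes in this direction. Libraries of equal number differed by -1.66, -0.80 and -1.5. Col1a2 averaged 188 ± 19.8 CPM in R149, against 313 ± 56.5 CPM in R158 (SD, n = 3 each). Here the log2 difference was -0.74 ± 0.15 (SE; edgeR adjusted p 0.0258), also without overlap.

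The call of Col1a1 between R149 and R158 held in all 25 alternatives run, with an adjusted p of at most 0.03. That of Col1a2 was lost in 9 of 25. It was lost with library size alone (edgeR adjusted p 0.0503), with only these lines in the fit (0.129) and without 1 of 7 single libraries. These were R149 replicate 1 (0.104), 2 (0.0585) or 3 (0.0916), R158 replicate 1 (0.0616) or 3 (0.133), WT replicate 2 (0.0552) and R323 replicate 2 (0.0517). With the replicate block its adjusted p was 0.00282. Fn1 and Col3a1 were not called between R149 and R158, with log2 differences of -0.52 ± 0.30 and -0.88 ± 0.63 (SE) and edgeR adjusted p of 0.649 and 0.749. With the replicate block Col3a1 was called, at a log2 difference of -0.90 and an adjusted p of 0.0355, and with replicates 2 and 3 alone at -0.93 and 0.000405, where 3.53% of tested genes were called lower. The share of tested genes called with the block was not counted here. Without R158 replicate 1 the difference of Col3a1 was 0.10.

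None of the 4 genes was called between R149 and R323, where 1.07% of all tested genes were called, or between R158 and R323, where 0.936% were. Col1a1 differed by -0.69 ± 0.17 between R149 and R323 and by 0.66 ± 0.17 between R158 and R323 (log2, SE), with edgeR adjusted p of 0.0775 and 0.0894 and no overlap of libraries in either case. Libraries did not overlap in these directions for 10.4% of tested genes between R149 and R323 and 10.3% between R158 and R323. Libraries also did not overlap for Fn1 between R149 and R323 (log2 difference -0.50 ± 0.30, SE; edgeR adjusted p 0.537) and for Col1a2 between R158 and R323. With the replicate block Col1a1 was called between R149 and R323 (adjusted p 0.0248) and between R158 and R323 (0.0339). It was also called in these comparisons with DESeq2 (adjusted p 0.00857 and 0.0174) and, with edgeR, without R158 replicate 2 (0.0186 and 0.0209). Between R149 and R323 it was called as well with only these lines in the fit (edgeR adjusted p 0.0162) and without a filter on low counts (0.0395). Col1a1 was not called in the other 20 of 25 alternatives between R149 and R323 and 22 of 25 between R158 and R323. Col1a2 was called between R158 and R323 with the block, at a log2 difference of 0.46 and an adjusted p of 0.0428, against 0.163 without it. The share of all tested genes called in these alternatives was not counted between mutants. Against WT it was higher with the block than without it, at 3.73% in R149, 1.78% in R158 and 2.36% in R323. Col3a1 was called lower in R149 than in R323 with replicates 2 and 3 alone, at -1.02 with an edgeR adjusted p of 0.000241, where 2.98% of tested genes were called lower.

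The order of mean Col1a1 levels from lowest to highest was R149, WT, R323, R158 and EV. The gap between R158 and EV was called, and none of the gaps between the other neighbours in this order was in the fit without a block. The alternatives that called the gap between R158 and R323 or between R149 and WT are given above. Col1a2 had the order R149, R323, WT, R158 and EV, and Fn1 the order R149, WT, R323, R158 and EV. For both, too, only the gap to EV was called among neighbours. Col3a1 had the order R149, WT, EV, R323 and R158 with all libraries, and no gap in it was called. The lowest mean of each gene was thus in R149 and the highest among MYC lines in R158. However, in the fit without a block R149 and R158 themselves were called different for the type I collagen chains only. With the block Col3a1 was called between them as well, and the call of Col1a2 was lost in 9 of 25 alternatives. For Fn1, R158 and R323 differed by only 0.02 ± 0.29 (log2, SE, edgeR adjusted p 0.979), so their order is not settled. For Col3a1 the place of R158 rested on replicate 1, at 101 CPM. By the median, Col3a1 in R158, at 26.2 CPM, was below WT and R323, both at 28.7 CPM.

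Across all 15 libraries, log2 CPM of Col1a1 and Col1a2 had a Pearson correlation of 0.97, and within the 12 MYC libraries, where EV does not set the range, of 0.89. Col3a1 and Fn1 had 0.52 over 15 libraries and 0.74 over the 12 MYC libraries, and Col1a2 and Col3a1 had 0.11 and -0.01. Col1a1 and Fn1 had 0.88 and 0.56, and Col1a2 and Fn1 0.81 and 0.27, so the values of Fn1 with the type I collagen chains were lower without the EV libraries. Col1a1 and Col3a1 had 0.23 and 0.38. The libraries share lines and replicate numbers, so these values describe the samples and are not tests. Among 8998 other genes with a mean of at least 10 CPM, ENSRNOG00000010694 and ENSRNOG00000018836 had the highest mean correlation with the 4 genes over the 15 libraries, 0.81 and 0.798. ENSRNOG00000010694 averaged 85.6 ± 10.1 CPM in R149, 97.0 ± 9.81 in R158, 94.0 ± 6.38 in R323 and 91.5 ± 8.05 in WT, against 137 ± 9.02 in EV (SD, n = 3 each). Its correlation was 0.962 with Fn1 and 0.495 with Col3a1. ENSRNOG00000018836 stood at 89.8 ± 5.13, 107 ± 20.2, 95.2 ± 1.78 and 104 ± 3.82 CPM in the same lines, against 149.04 ± 10.8 CPM in EV. The tables do not pair these identifiers with names.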

How the data were processed

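The deposited tables held raw counts per Ensembl gene, whole numbers with no normalization by the authors, 1 table per library. The kit selected mRNA and kept strand, per the labels' protocols. TopHat2 2.1.0 and the rat build Rnor_6.0 are named in the submitters' processing notes. Which tool counted reads, with what strand setting and gene annotation, is not stated in them, so overlapping or antisense genes could share reads.

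The test was run in edgeR 4.0.16 under R 4.3.3, with limma 3.58.1 and DESeq2 1.42.0 as alternatives. filterByExpr at its default minimum count of 10 kept 13676 genes, holding 99.98% of counts, TMM factors scaled the libraries, and 1 quasi-likelihood fit with the line as only term used all 15 libraries. Each of 10 comparisons between lines was adjusted by Benjamini-Hochberg over all tested genes. A standard error is the log2 fold change divided by the square root of its F statistic. Log2 CPM used a prior count of 2. The biological coefficient of variation was 16.1%. The procedure was also tested on simulated data with known changes. These were drawn without an effect of the replicate number, so they do not cover the replicate differences seen here. No replicate pair agreed within counting noise (chi-square per degree of freedom of 4.43 or more). Replicates are cultures of 1 line, so p-values measure the spread between them.

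Equal replicate numbers are given by the labels without a stated meaning. Deviations of equal-numbered libraries from their line means correlated at 0.13 to 0.54 in every pair among the 4 MYC lines, so blocked values stand beside those comparisons where they change a call.

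The 4 genes, the gene lists and the tests were chosen with earlier results of these data known. The rule for named genes took the 4 genes in every comparison and, where identifiers could not be paired with symbols, the 2 other genes of at least 10 CPM with the highest mean correlation with them. The reference gene table, of the GRCr8 assembly, had Ensembl identifiers in 0 of 47357 rows, so lists of other collagens, collagen-processing enzymes, matrix proteins, receptors, regulators and cell type markers could not be applied. Motifs were searched in RefSeq promoter sequences of GRCr8.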

Additional observations from a re-analysis of the deposited data

Results flagged for a closer look

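The fall of Col1a1 against EV differed in size between R149 and R158, by -1.35 on the log2 scale in the direct comparison of the lines (edgeR adjusted p 0.00123), and R149 was lower in 3 of 3 pairs of equal number. The fall of Col1a2 differed between the same lines by -0.74 (edgeR adjusted p 0.0258), with R149 lower in 3 of 3 pairs. In R158 the Col1a1 level of replicate 2, at 1017 CPM, was lower than the 1609 and 1598 CPM of replicates 1 and 3, and Fn1 in that library, at 678 CPM, was the lowest of all 15 libraries. Without R158 replicate 2 the log2 differences between R149 and R158 were -1.53 for Col1a1 and -0.85 for Col1a2, both still called. That library was the lowest of R158 for both chains, so leaving it out widened the gap. The call of Col1a2 was lost in 9 of 25 alternatives. Among these were the fits without R158 replicate 1 (edgeR adjusted p 0.0616) or 3 (0.133) and without any 1 of the R149 libraries.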

How the results depend on the processing

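The falls of Col1a1, Col1a2 and Fn1 against EV kept their direction and their call in all 25 alternatives for each of the 12 results, 300 values in all. Their log2 values ranged from -4.09 to -2.43 for Col1a1, -1.85 to -0.92 for Col1a2 and -1.98 to -0.94 for Fn1. Col3a1 against EV kept its sign and missed the call in 87 of 100 values. With the replicate block, Col3a1 was called in R149 (-0.89, adjusted p 0.0034) and stood at -0.05 in R323. The replicate numbers of the MYC lines were not shown to pair with those of EV, where the lowest correlation was 0.0052. The block changed no other call against EV, and 12 of 15 libraries correlated best with their own number. With limma-voom Col3a1 stood at -0.06 in R158 and -0.05 in R323. With replicates 2 and 3 only, Col3a1 against EV gave -1.32, -0.39, -0.30 and -0.27 in R149, R158, R323 and WT, and against WT it gave -1.05, -0.12 and -0.02 in R149, R158 and R323. When single libraries were left out, Col3a1 against EV ranged from -1.63 to -0.26 in R149, -0.71 to 0.60 in R158, -0.59 to 0.45 in R323 and -0.58 to 0.16 in WT.

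Against WT, Col1a1 was called in R149 with DESeq2 (-0.58) and without R158 replicate 2 (-0.58). In R158 it was called with DESeq2 (0.76), without a filter on low counts (0.75), with the replicate block (0.77) and without R158 replicate 2 (0.96). It was not called in the other 23 of 25 alternatives in R149 and 21 of 25 in R158. Leaving out single libraries gave -0.68 to -0.46 for Col1a1 in R149 and 0.65 to 0.96 in R158. It gave -0.55 to 0.85 for Col3a1 and -0.14 to 0.55 for Fn1 in R158, and -0.20 to 0.08 for Col1a2, -0.44 to 0.72 for Col3a1 and -0.02 to 0.41 for Fn1 in R323. Between mutants, leaving out single libraries gave -1.90 to 0.10 for Col3a1 between R149 and R158, and -0.84 to 0.86 for Col3a1 and -0.35 to 0.34 for Fn1 between R158 and R323. Between R158 and R323, Col3a1 was -0.01 with limma-voom and -0.10 with replicates 2 and 3 only. Fn1 there was -0.10 with limma-voom, -0.02 with library size alone, -0.06 with the replicate block and -0.21 with replicates 2 and 3 only. The causes were not tested.

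Of tested genes, 1.18% were called against WT in R149, 0.6% in R158 and 0.892% in R323. In the same order, the shares were 2.92, 1.68 and 1.98% with DESeq2, 3.73, 1.78 and 2.36% with the replicate block, 0.405, 0.329 and 0.481% with only the lines compared, and 9.59, 7.22 and 6.7% with replicates 2 and 3 only. Limma-voom gave 0.38% in R158. Without a filter on low counts, which adds low genes to the test, the shares against EV were 25.5% in R149, 17.6% in R158, 19.1% in R323 and 17.2% in WT. Leaving out single libraries gave 0.553 to 2.59%, 0.136 to 1.5% and 0.444 to 1.76% against WT, and against EV 15.1 to 32.4% in R158 and 17.2 to 30.9% in WT. The mean Col1a1 to Col1a2 ratio of a line moved by less than its SD in all 15 cases of a library left out. With at least 425 counts per gene and library, depth limited these genes less than the spread between cultures.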

Other observations

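After the replicate 1 libraries were seen to be high for Col3a1, replicate 1 was compared with the mean of replicates 2 and 3 over all lines, in a fit with line and replicate number as terms. Col3a1 was 2.85-fold higher in replicate 1, or 1.51 ± 0.14 on the log2 scale (SE; edgeR adjusted p 5.0e-05). Since the same libraries prompted the comparison, this adjusted p describes them and is not a test. The pooled value covers factors from 1.74 in EV to 4.13 in R149. The fit gives EV the same replicate term, although its numbers were not shown to pair with those of the MYC lines. Fn1 was 1.41-fold higher (log2 0.50 ± 0.13, adjusted p 0.0149), and both were highest in replicate 1 in 5 of 5 lines. The pooled Fn1 value covers factors from 1.07 in EV to 1.87 in R158. In EV, replicates 1 and 3 were close for Fn1, at 3376 and 3344 CPM. How many of all tested genes were highest in replicate 1 in every line was not counted. Col1a1 and Col1a2 were not called, with log2 differences of -0.04 ± 0.10 and -0.19 ± 0.08 and adjusted p of 0.769 and 0.0763. With library size alone in place of TMM factors, Col1a2 was called at -0.25 (adjusted p 0.0482). Of all tested genes, 13.2% were called higher in replicate 1 and 14.2% lower. The labels do not say what the replicate numbers stand for.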
